A study of Rattus norvegicus with 6 samples.

Results

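The array carried 61 probes for curated rat non-coding transcripts, chosen by their RefSeq transcript identifier (NR_, a record reviewed by curators) among 52274 non-control probes. Predicted transcripts (XR_, 6247 probes) were left out. Of the 61, 57 matched a current rat gene in RefSeq (assembly GRCr8), which gave 55 genes because Pincl has 3 probes. The other 4 (NR_045202.1, NR_027366.1, NR_002597.1 and NR_126572.1) are named by identifier only. RefSeq lists 52 of the matched probes as lncRNA. The others are Rpph1 RNA, a non-coding variant of the protein-coding gene Timm9, and the transcribed pseudogenes Gapdh-ps1, Dzip1-ps1 and Prrc2c.

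The samples came from rats with chronic allograft nephropathy, in which a kidney from a male Fisher 344 donor slowly scars in a Lewis recipient. Recipients in 1 group received AMD3100 (plerixafor), a CXCR4 blocker, by daily subcutaneous dosing at 1 mg/kg for 12 weeks, and those in the other received saline. All grafts were taken at 12 weeks, and no unoperated or same-strain graft belongs to the comparison. Each group had 3 samples on 1-colour arrays, and the protocol gives 3 rats per group. No label ties a sample to a rat, so a p-value here reflects only the scatter of these 6 samples, part of which may be technical. The RNA is from graft tissue in bulk, which can hold donor kidney cells and recipient leukocytes, so a lower signal from fewer cells of a type and from less RNA per cell cannot be told apart. The catalogue probes for mRNA are not paired with gene names here (0 of 27 kidney, leukocyte, scar and blood markers had a named probe), and the tissue label could not be checked.

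Long non-coding RNAs are transcripts without a conserved long reading frame. They act in several ways: some bind chromatin and silence genes nearby, some scaffold nuclear bodies, and some bind microRNAs and blunt their action. Rpph1 is of another kind, a small structured RNA made by RNA polymerase III that forms the catalytic core of ribonuclease P, the enzyme that trims tRNA precursors.

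The promoters of 4 genes that the results below turn on are shown, for those with an entry in the RefSeq promoter table (GRCr8; 250 bases before to 50 after the start, written 5′ to 3′ along the gene's strand). LOC100910802 at chr12:25394111-25394410 (minus strand) and Timm9 at chr6:95358846-95359145 (minus strand) belong to transcripts past an unadjusted p of 0.05. Cb707485 at chr20:3029093-3029392 (minus strand) and LOC102549726 at chr20:3880958-3881257 (plus strand) had the largest differences between group means. Capitals mark matches on either strand to the TATA box (TATAAA), the octamer (ATGCAAAT), the CCAAT box (CCAAT), the GC box (GGGCGG) and the core of the heat shock element (GAANNTTC). The last was added after seeing that LOC102549726 lies beside the heat-shock gene Hspa1b.
LOC100910802: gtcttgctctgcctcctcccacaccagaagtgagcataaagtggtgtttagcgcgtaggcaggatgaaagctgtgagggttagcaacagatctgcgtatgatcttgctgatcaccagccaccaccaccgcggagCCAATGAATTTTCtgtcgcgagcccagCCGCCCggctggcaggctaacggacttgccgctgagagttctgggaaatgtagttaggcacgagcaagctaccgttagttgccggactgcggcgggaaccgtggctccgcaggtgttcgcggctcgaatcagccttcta
Timm9: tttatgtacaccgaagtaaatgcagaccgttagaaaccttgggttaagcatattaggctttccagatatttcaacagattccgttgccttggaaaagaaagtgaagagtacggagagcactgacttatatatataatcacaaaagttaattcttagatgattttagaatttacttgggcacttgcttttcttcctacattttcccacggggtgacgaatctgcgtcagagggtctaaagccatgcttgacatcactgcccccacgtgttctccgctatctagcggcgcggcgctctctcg
Cb707485: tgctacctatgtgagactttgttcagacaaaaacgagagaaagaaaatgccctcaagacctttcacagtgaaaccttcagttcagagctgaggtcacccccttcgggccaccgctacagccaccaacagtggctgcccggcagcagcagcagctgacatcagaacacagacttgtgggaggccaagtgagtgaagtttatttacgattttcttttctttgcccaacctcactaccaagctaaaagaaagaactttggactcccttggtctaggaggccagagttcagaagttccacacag
LOC102549726: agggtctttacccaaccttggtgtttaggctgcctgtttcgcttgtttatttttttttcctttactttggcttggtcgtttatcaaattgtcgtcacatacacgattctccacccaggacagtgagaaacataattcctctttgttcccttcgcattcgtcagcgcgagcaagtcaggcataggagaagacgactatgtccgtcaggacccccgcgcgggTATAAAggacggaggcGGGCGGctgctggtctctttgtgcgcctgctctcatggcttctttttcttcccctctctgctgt
LOC100910802 held 1 CCAAT box, 1 GC box and, directly after the CCAAT box, 1 heat shock element core. LOC102549726 held 1 TATA box and 1 GC box but no heat shock element core, and the other two windows held none of these letters. Of 33469 promoters in the table, 14.2% held the TATA box, 37.5% the CCAAT box, 33.1% the GC box, 1.78% the octamer and 8.59% the heat shock element core. Among the 46 promoter entries of the curated genes, the shares were 15.2%, 28.3%, 26.1%, 2.17% and 10.9% in that order. These are matches of letters and not binding sites.

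Before the values, 2 arrays have to be named. Over all tested probes AMD3100 replicate 1 correlated least with the others (Pearson r = 0.899 to 0.942), and saline replicate 2 was nearer to a treated array, AMD3100 replicate 3 (r = 0.976), than to the other two saline arrays (r = 0.949 each). Those were the closest pair (r = 0.990). The share of all probes well above background was 68.1% to 72.7% on AMD3100 arrays and 74.3% to 81.1% on saline arrays, without overlap. The 75th percentile of signal was 401.5 to 506.9 intensity units on AMD3100 arrays and 579.2 to 657.1 on saline arrays. Differences that rest on either array are given with and without it. A fit with each array's share of detected probes as a covariate is given beside the larger differences. That share parts the groups, so the covariate can take up a group difference as well.

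Of the 61 curated probes, 28 were well above background on all 6 arrays and 21 on none. Another 6 were above background on 3 to 5 arrays, 5 on a single array, and Ftx had 1 spot that the scanner software marked as an outlier. The 34 probes detected on 3 or more arrays (56.7% of the 60 with a usable value on every array) entered the test. This share was 55.6% for predicted RefSeq transcripts and 76.1% for all probes. Per array, 28, 33 and 34 of the 60 were detected in AMD3100 replicates 1, 2 and 3, and 36, 31 and 35 in saline replicates 1, 2 and 3. The ranges overlapped, with a mean of 31.7 ± 3.21 under AMD3100 and 34.0 ± 2.65 under saline (SD, n = 3). A two-sided exact permutation test gave p = 0.5, where 0.1 is the smallest possible. With the scanner's flag for a positive and significant signal in place of well above background, the difference between these means went from −2.33 to −8.67 probes, with an exact permutation p of 0.1, the smallest possible. The share of all probes under that flag is not given here. For all probes the share well above background averaged 71.1% under AMD3100 and 78.3% under saline, a difference of −7.15 points (exact permutation p = 0.1). By the well-above-background call, lower detection was thus not particular to the curated probes. For the other flag this was not tested.

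**Figure D1:**
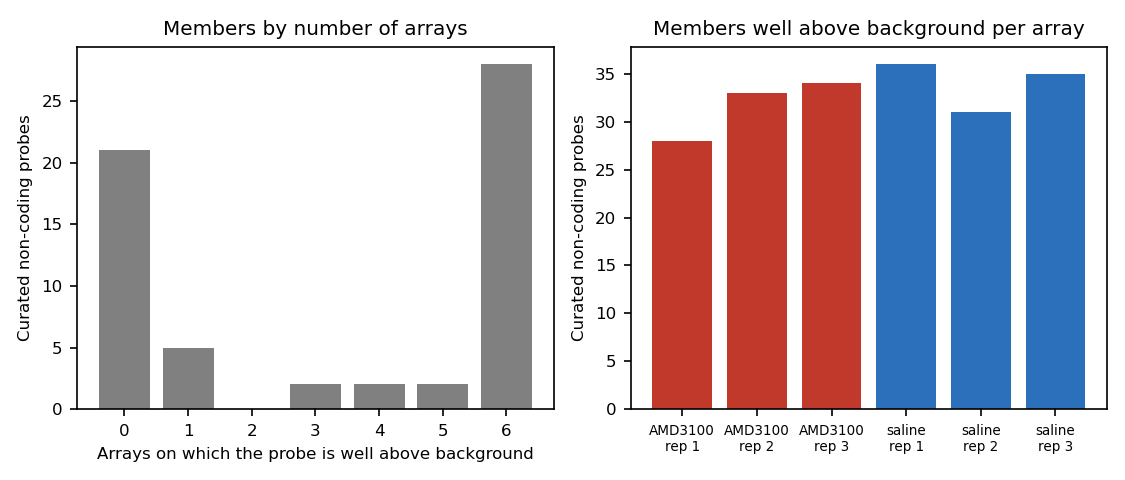
Left, the number of curated non-coding probes (y axis) well above background on 0 to 6 arrays (x axis), for the 60 with a usable value on every array; right, the number well above background on each array, AMD3100 in red and saline in blue. Most probes were seen on all 6 arrays (28) or on none (21), and AMD3100 replicate 1 had the fewest (28).

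Of the 60 curated probes with a usable value on every array, 35.0% were well above background on none. This share was 31.8% for predicted RefSeq transcripts and 16.4% for all probes. Strit1, whose transcript encodes a small peptide that activates the calcium pump of muscle (RefSeq lists it as lncRNA here), was not well above background on any array. The same held for Gapdh-ps1, Dzip1-ps1, E230034O05Rik, Lnc001, Lnc012, NR_126572.1, RGD1562890, 12 LOC transcripts and 1 of the 3 Pincl probes. Fendrr, a lncRNA beside Foxf1 that patterns mesoderm in the embryo, was above background on saline replicate 3 alone, and CB741658 and Sert1 on saline replicate 1 alone. LOC100911370 was above background on saline replicate 2 alone and Lnc056 on AMD3100 replicate 3 alone. Such probes have only a bound elsewhere, and no difference between groups is given for them.

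No curated probe differed between AMD3100 and saline grafts after correction over all 39757 tested probes, as no probe of the array did (limma adjusted p below 0.05 for 0 of 34, background 0%). At an unadjusted p below 0.05 there were 4 of the 34 (11.8%), against 13.8% of all tested probes. One was higher under AMD3100, Rpph1 (2.94% of the 34, against 6.42% of all probes), and 3 were lower, the Timm9 variant, NR_045202.1 and LOC100910802 (8.82%, against 7.41%). None of the 34 was both past that level and at least 2-fold apart, against 4.36% of all probes. AMD3100 and saline values were fully apart for 5 of the 34 (14.7%, against 20.0% of all), 2 higher (11.5% of all probes) and 3 lower (8.52% of all probes). The difference was above 0 for 16 of the 34 (47.1%, against 53.3% of all). The median log2 difference of the 34 was −0.04 and that of all tested probes 0.03, and the median size without sign was 0.19 and 0.28. These shares lie near or under the background and are no result about the list. Without AMD3100 replicate 2, saline replicate 1 or saline replicate 3 the count of 4 went to 2 in each case (5.88%). The share of all tested probes fell as well, to 9.75%, 5.92% and 4.62% in that order. The half-width of the 95% interval had a median of 0.66 log2 units over the 34, which is the precision that 3 arrays a group gave for a typical member.

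**Figure D2:**
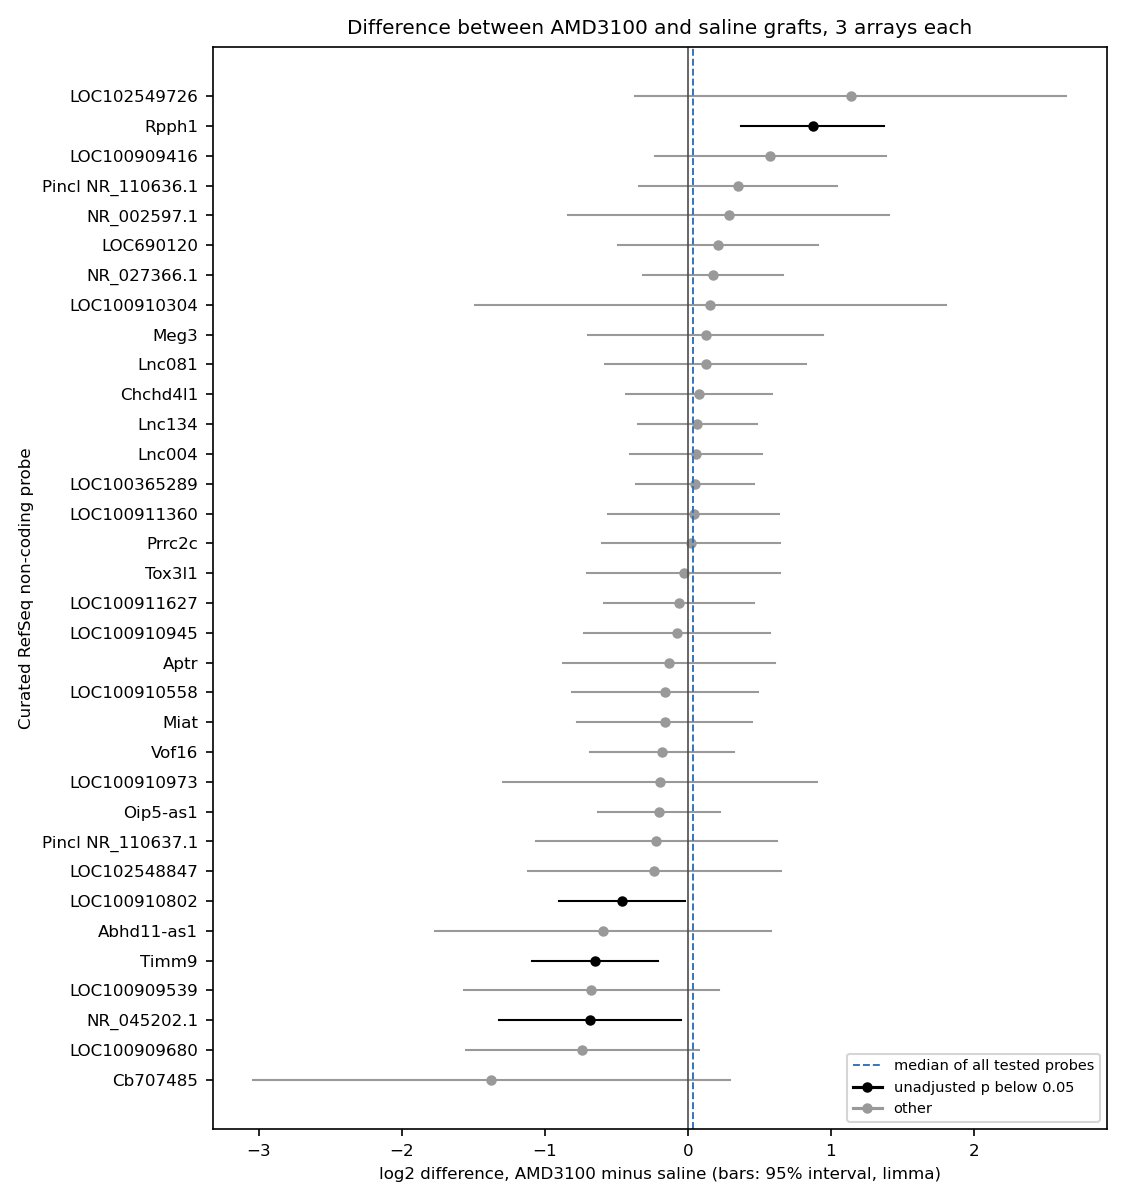
The log2 difference (AMD3100 minus saline, x axis) of each of the 34 tested curated probes, in order of size, with limma's 95% interval as a bar; black marks the 4 probes with an unadjusted p below 0.05 and the dashed line the median of all tested probes (0.03). The differences run from −1.37 (Cb707485) to 1.14 (LOC102549726), and 30 intervals include 0.

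Rpph1 (NR_002703.1), the RNA of ribonuclease P, had a log2 signal (zero marks the 75th percentile of each array) of 5.53, 5.88 and 5.55 on AMD3100 arrays and 5.06, 4.66 and 4.62 on saline arrays. Every AMD3100 array lay above every saline array, and saline replicate 1 was the closest to them. The processed intensity, before any scaling between arrays, was also higher on every AMD3100 array: 22270, 23630 and 23800 against 20430, 14620 and 16190. The closest pair there was AMD3100 replicate 1 and saline replicate 1 (22270 and 20430). The log2 difference was 0.87 (95% interval 0.37 to 1.37), a 1.83-fold higher signal, with a limma adjusted p of 0.323 over all probes. It was 0.94 without AMD3100 replicate 1 and 0.81 without saline replicate 2, and 1.04 with the detected share as a covariate. Scaling to the E1A spike-in probes, which shifted the median of all tested probes to −0.60, gave 0.24. Under that scaling 10 of the 34 (29.4%) were at an unadjusted p below 0.05, against 28.6% of all probes, both directions counted. All 10 were lower, so Rpph1 was not among them (limma adjusted p = 0.602). The share of all probes in each direction under that scaling is not given here. At an adjusted p below 0.05 there were 0 of the 34, against 0.0679% of all. Rpph1 was the 1 member on the array of 8 listed RNA components of ribonucleoproteins, so its direction could not be set beside that of a related RNA. Its gene overlaps Parp2, a DNA-repair enzyme gene, in the GRCr8 annotation. The probe sequence is not given, so signal from that neighbour cannot be told apart from it.

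The non-coding Timm9 variant (NR_075101.1) comes from the gene of a chaperone that carries proteins across the mitochondrial intermembrane space. Its log2 signal was −1.38, −1.57 and −1.49 on AMD3100 arrays and −0.74, −1.04 and −0.72 on saline arrays. All 3 treated arrays were lower than all 3 controls, and the treated values lay close together (SD 0.10, against 0.18). The log2 difference was −0.65 (95% interval −1.09 to −0.21; limma adjusted p = 0.323), which is a 1.57-fold higher signal in saline grafts. Leaving out AMD3100 replicate 1 gave −0.70 and leaving out saline replicate 2 gave −0.755, while normexp background correction gave −0.40, spike-in scaling −1.29 and the covariate −0.50. The deposited files do not say whether the probe also detects the coding Timm9 mRNA. In GRCr8 the gene overlaps Tomm20l and Kiaa0586 on the opposite strand.

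NR_045202.1, which matched no current gene, read −1.64, −1.08 and −0.75 under AMD3100 and −0.45, −0.70 and −0.27 under saline. The closest pair, AMD3100 replicate 3 and saline replicate 2, differed by little, although the groups did not overlap. The log2 difference was −0.68 (95% interval −1.32 to −0.04; limma adjusted p = 0.349). It shrank to −0.44 without AMD3100 replicate 1, the lowest array, and to −0.0012 with the detected share as a covariate.

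LOC100910802 (NR_102359.1), a lncRNA between Fis1, a mitochondrial fission gene, and Ift22, a gene of cilium transport, read −2.29, −2.19 and −1.89 under AMD3100 and −1.63, −1.72 and −1.64 under saline. The saline values were tight (SD 0.05) and all above the treated ones. The log2 difference was −0.46 (95% interval −0.90 to −0.02; limma adjusted p = 0.353), with −0.38 without AMD3100 replicate 1, −0.49 without saline replicate 2, −0.18 with normexp and −0.26 with the covariate.

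**Figure D3:**
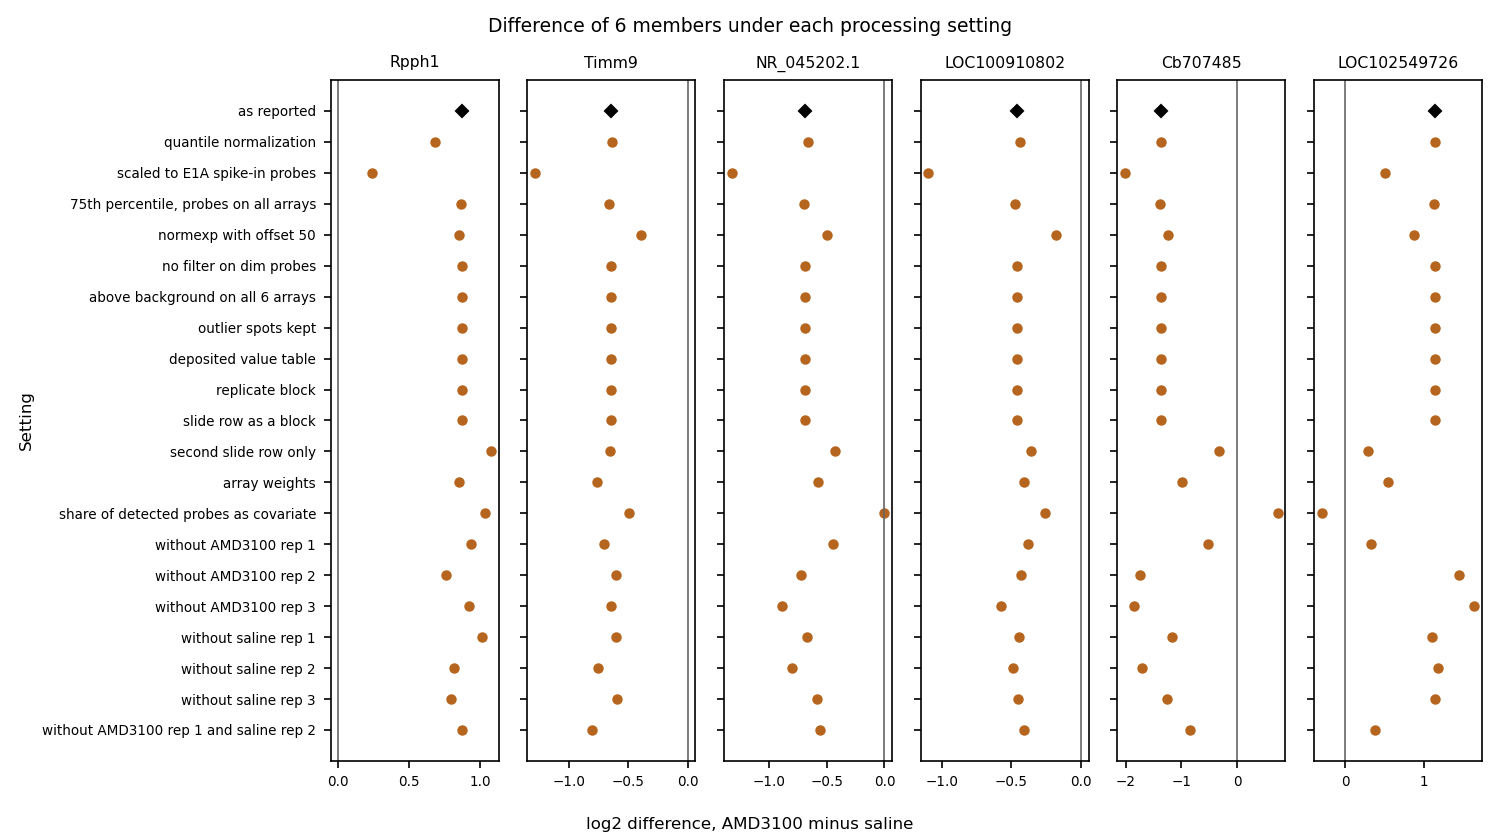
The log2 difference (AMD3100 minus saline, x axis, own scale per panel) of 6 curated transcripts under each processing setting (y axis); the black diamond is the value as reported. Rpph1, Timm9, NR_045202.1 and LOC100910802 kept their sign in every setting shown (NR_045202.1 only just, at −0.0012 with the covariate), while Cb707485 and LOC102549726 changed sign with the detected share as a covariate.

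The 2 largest differences among the 34 were not among these 4, and both shrank without AMD3100 replicate 1. Cb707485 (NR_029398.1), a lncRNA between Ier3, an early stress-response gene, and Ddr1, a collagen receptor gene, read −1.50, 0.94 and 1.15 under AMD3100 and 1.98, 0.93 and 1.81 under saline. Its value on AMD3100 replicate 1 lay 2.65 below the median of the other arrays. The remaining treated arrays lay just above saline replicate 2 and below saline replicates 1 and 3. The log2 difference of −1.37 (95% interval −3.04 to 0.29; limma adjusted p = 0.414) became −0.52 without AMD3100 replicate 1 and 0.73 with the covariate. It was −0.85 with AMD3100 replicate 1 and saline replicate 2 both left out, a choice made after seeing the data. LOC102549726 (NR_110713.1), between the heat-shock protein gene Hspa1b and the lysosomal sialidase gene Neu1, went the other way on the same array. It read 0.66, −1.58 and −1.96 under AMD3100 and −2.18, −2.01 and −2.10 under saline. The groups did not overlap, but AMD3100 replicate 3 was close to the controls. The log2 difference of 1.14 (95% interval −0.37 to 2.65; limma adjusted p = 0.442) became 0.33 without AMD3100 replicate 1 and −0.30 with the covariate. Both genes lie in the rat major histocompatibility region on chromosome 20, the locus of the transplantation antigens, as do 2 curated genes that were not tested. These are E230034O05Rik, which overlaps Prrc2a between Aif1 and Bag6, and CB741658, beside Mucl3. This shared position was noticed after the values were seen. The share of all probes in this region was not counted, and a link between position and signal was not tested.

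Departures of AMD3100 replicate 1 were common across the list. For 16 of the 34 curated probes (47.1%) it was the array farthest from the median of the other 5, against 34.9% of all tested probes. A departure of at least 2-fold on some array was seen for 11 of the 34 (32.4%, against 25.7% of all tested probes). It was on AMD3100 replicate 1 for 5 of the 34 (against 12.4% of all), which is near the background. Besides Cb707485 and LOC102549726 these 5 were Abhd11-as1, LOC100910304 and NR_002597.1. Abhd11-as1, a lncRNA beside the Abhd11 gene, read −1.56, 0.30 and 0.08 under AMD3100 and 0.28, −0.21 and 0.52 under saline, so 1 array was low and the others mixed. Its log2 difference went from −0.59 to −0.0079 without that array and to 0.86 with the covariate. LOC100910304, beside the neural transcription factor gene Pou3f3, was low on AMD3100 replicate 1 (−5.18) and saline replicate 2 (−4.84), and lay between −3.63 and −2.90 on the other 4 arrays. It was not well above background on those 2 arrays. NR_002597.1 showed the opposite pattern on the same pair, with 2.92 and 2.86 against 1.40 to 2.00 on the other arrays. The log2 difference of LOC100910304 was 0.16, with 0.90 without AMD3100 replicate 1, −0.33 without saline replicate 2 and 2.38 with the covariate. That of NR_002597.1 was 0.29, with −0.0657, 0.76 and −1.32 in the same order. Neither has a settled direction.

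Saline replicate 2 alone departed in other transcripts. LOC100910973, between the membrane-protein genes Ms4a18 and Ms4a8, read 1.14 there and −0.68 and −0.50 on the other saline arrays, with −0.29 to −0.12 under AMD3100. Its log2 difference turned from −0.20 to 0.38 without saline replicate 2 and was −1.50 with the covariate. Tox3l1 read 1.90 there, against 0.93 and 1.01 on the other saline arrays and 1.20 to 1.28 under AMD3100. Its difference turned from −0.03 to 0.28 without that array and was −0.65 with the covariate. Conversely, LOC100909680, which overlaps Garin2, read −1.36, −2.42 and −1.25 under saline and −2.70, −2.19 and −2.35 under AMD3100. Saline replicates 1 and 3 were thus higher than every treated array, and saline replicate 2 lay among the treated arrays. LOC100909539, beside the axon-guidance gene Sema5a, read −1.59, −2.90 and −1.58 under saline and −2.79, −2.50 and −2.81 under AMD3100. There too saline replicates 1 and 3 were above every treated array, but saline replicate 2 was the lowest of the 6. The log2 differences of these 2 were −0.74 and −0.67 (limma adjusted p = 0.392 and 0.442), and −1.11 each without saline replicate 2 (limma adjusted p = 0.0806 and 0.0671). With the covariate both turned positive, to 0.34 and 0.37.

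LOC100909416, beside the ubiquitin ligase gene Nedd4, read −1.71, −0.36 and −0.86 under AMD3100 and −1.56, −1.44 and −1.67 under saline. The controls were tight (SD 0.11), AMD3100 replicates 2 and 3 were above all of them, and AMD3100 replicate 1 was below. Its log2 difference was 0.58 (limma adjusted p = 0.462), and 0.95 without AMD3100 replicate 1 (limma adjusted p = 0.213). Without AMD3100 replicate 2, the highest array, it was 0.27. It was 1.04 with the covariate and −0.0585 with spike-in scaling. With AMD3100 replicate 1 and saline replicate 2 both left out, a choice made after seeing the data that keeps 2 arrays a group, 6 of the 34 passed correction over all probes (17.6%), against 17.5% of all tested probes. These were Rpph1 and LOC100909416, higher by 0.87 and 1.00, and Timm9, Cb707485, LOC100909539 and LOC100909680, with log2 differences of −0.81, −0.85, −1.07 and −0.96 (limma adjusted p = 0.0179 to 0.0473). With limma array weights and all 6 arrays, 5 of the 34 passed (14.7%, against 12.6% of all): the same genes without Cb707485. Both counts lie near the background of all probes in the same fit.

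**Figure D4:**
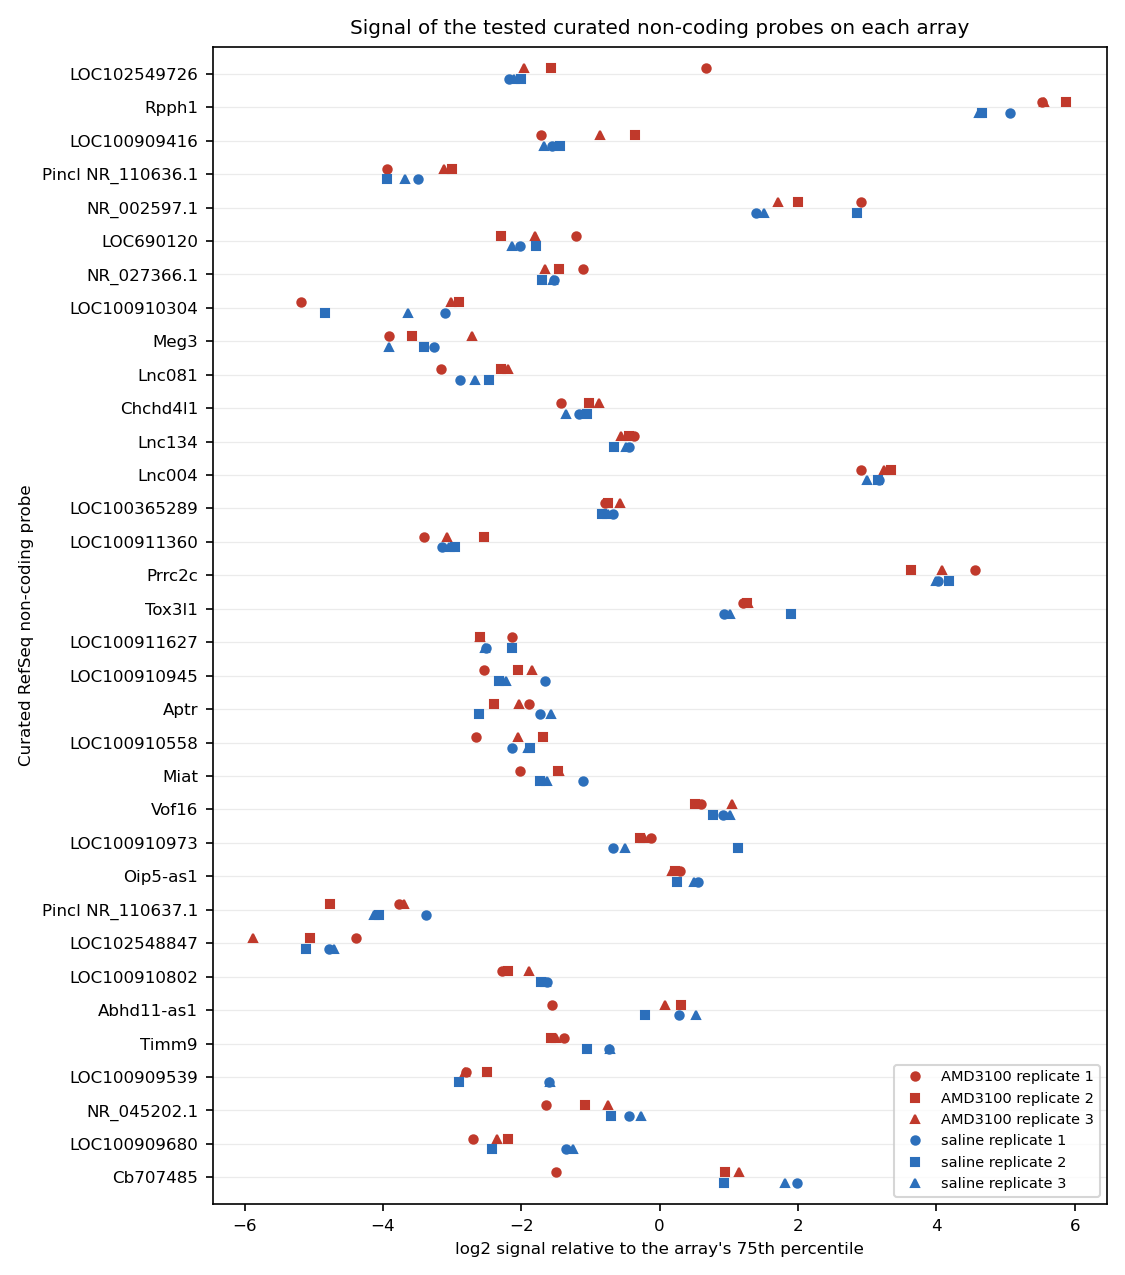
The log2 signal, with zero at each array's 75th percentile (x axis), of the 34 tested curated probes on each of the 6 arrays, in order of the difference between group means; red is AMD3100, blue is saline, and circles, squares and triangles are replicates 1, 2 and 3. For LOC102549726 and Cb707485 the AMD3100 replicate 1 circle (0.66 and −1.50) stands far from the other points, while the 3 Rpph1 values under AMD3100 all lie above 5.5. Levels of different probes cannot be compared.

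For Meg3, Miat, Oip5-as1, Aptr and Vof16 no difference passed and the groups overlapped. Meg3, an imprinted lncRNA that acts on p53 and on chromatin, read −3.91, −3.58 and −2.71 under AMD3100 and −3.26, −3.41 and −3.91 under saline. It was not well above background on AMD3100 replicate 1, and its difference of 0.13 has a 95% interval of −0.70 to 0.95. It is the only one of 9 listed imprinted lncRNAs with a matched probe. Miat, a nuclear lncRNA linked to splicing, read −2.03, −1.47 and −1.46 under AMD3100 and −1.12, −1.73 and −1.62 under saline, a difference of −0.16 (−0.77 to 0.45). Oip5-as1, which binds and blunts the microRNA miR-7, read 0.30, 0.22 and 0.18 under AMD3100 and 0.55, 0.25 and 0.50 under saline. Its difference of −0.20 (−0.62 to 0.22) was negative in every setting tried, although AMD3100 replicate 1 lay above saline replicate 2. Aptr, a lncRNA that represses the cell-cycle inhibitor p21, read −1.88, −2.40 and −2.03 under AMD3100 and −1.73, −2.61 and −1.58 under saline, a difference of −0.13 (−0.87 to 0.61). Vof16, on the list of brain lncRNAs, read 0.59, 0.51 and 1.05 under AMD3100 and 0.91, 0.77 and 1.01 under saline, a difference of −0.18 (−0.69 to 0.32). These intervals do not show equal levels.

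The X-inactivation centre was represented by Ftx, a lncRNA that promotes Xist, the RNA that silences an X chromosome in females. Its log2 signal was −2.45, −1.35 and −1.13 under AMD3100 and −0.58 and −0.56 on saline replicates 1 and 3. The spot on saline replicate 2 was marked as an outlier, so Ftx was not tested. The 5 unmarked values do not overlap between groups, and the marked spot (1.10) is higher still. With marked spots kept the log2 difference was −1.63 ± 0.54 (SE; limma unadjusted p = 0.0199, adjusted p = 0.334). In that setting 5 of 35 curated probes (14.3%) were at an unadjusted p below 0.05, against 13.8% of all. Jpx, another lncRNA of this locus measured by a predicted transcript, differed by 0.10 ± 0.24 (SE; limma adjusted p = 0.86).

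Of the 8 lists of RNA classes, 6 had a curated probe: 1 of 8 ribonucleoprotein RNAs, 1 of 9 imprinted and 1 of 4 X-inactivation lncRNAs, 2 of 9 nuclear, 2 of 7 brain and 2 of 24 antisense lncRNAs. Rpph1 was the only tested probe on these lists past an unadjusted p of 0.05. Ftx, left out of the test, was also past it with marked spots kept (limma unadjusted p = 0.0199). None of 185 snoRNAs and snoRNA hosts or 465 microRNA precursors had a matched probe.

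The 3 Pincl probes were all dim, with at most 58.64 intensity units on any array. NR_110636.1 was detected on 4 arrays and differed by 0.35 (95% interval −0.34 to 1.05). NR_110637.1 was detected on 3 arrays and differed by −0.22 (−1.06 to 0.62), and the third was not detected. The intervals overlap, so the probes gave no direction for the gene.

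The steadiest transcripts were seen on all 6 arrays. LOC100365289, which overlaps Ppp2r3b on the opposite strand, ranged over 0.26 log2 units across the 6 arrays, Lnc134 over 0.28, Oip5-as1 over 0.37 and Lnc004 over 0.43. Lnc004, on the strand opposite the peptide transporter gene Slc15a1, read 2.91, 3.34 and 3.25 under AMD3100 and 3.17, 3.16 and 2.99 under saline, a difference of 0.06 (−0.40 to 0.52). The smallest difference of the 34 was that of Prrc2c (0.02, −0.60 to 0.64), whose AMD3100 values of 4.55, 3.63 and 4.08 surrounded the saline values of 4.02, 4.19 and 3.99. Chchd4l1, Lnc081 and Lnc134 differed by 0.08, 0.13 and 0.07, and Tox3l1 by −0.03, with overlap in each. The remaining 6 LOC transcripts and NR_027366.1 differed by −0.24 to 0.21, with overlap in each.

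By position in GRCr8, 14 of the 55 curated genes overlap a protein-coding gene, 8 of them on the opposite strand and 2 on the same strand where the tables give both strands. Of the transcripts with an unadjusted p below 0.05, Rpph1 and Timm9 overlap a coding gene and LOC100910802 does not.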

How the data were processed

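Total RNA in 6 kidney graft samples (3 per group) was labelled with 1 colour and hybridised to Agilent arrays on 1 slide in 1 scan. The deposited files hold scanner intensity; per the file headers the extraction software was Agilent Feature Extraction 11.5.1.1. Version 10.7.1.1 is given in the submitters' processing notes. The deposited value table holds log2 values, which equalled log2 processed signal minus a constant per array. The genome build was rn4 per the submitters' processing notes. Here the log2 processed signal minus each array's 75th percentile was used, control spots and outlier spots were left out, and spots of 1 probe were averaged. Tests covered the probes that 3 or more of the 6 arrays called well above background (39757 of 52274). Groups were compared with limma 3.58.1 (R 4.3.3), with Benjamini-Hochberg adjustment over all tested probes, and intervals are limma's. The scripts were tested on simulated data. Named in full were members with a gene symbol other than LOC or RGD names, those whose groups did not overlap, those with an unadjusted p below 0.05, and the smallest difference; further members were named after their values were seen. Members and lists were chosen with earlier results of these data known. Names and neighbours come from RefSeq (GRCr8). Alternatives covered scaling, background correction, the filter, outlier spots, blocks, array weights, a detection covariate and each array left out. The number of arrays limits the precision. Probes without a RefSeq identifier of this kind were used only as background.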

Additional observations from a re-analysis of the deposited data

Results flagged for a closer look

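Lnc056 (NR_126574.1), which lies between the chromatin remodeller gene Chd7 and Clvs1, was not tested because it was well above background on 1 array only, AMD3100 replicate 3, and on no saline array. Its log2 signal relative to the 75th percentile was −4.43, −5.31 and −3.37 under AMD3100 and −5.37, −5.41 and −5.82 under saline. Its intensity on AMD3100 replicate 3 was dim, 49.16 units where the 75th percentile of that array was 506.9. The other curated probes seen on a single array (CB741658, Fendrr, LOC100911370 and Sert1) were each seen on a saline array. How all probes seen on a single array divide between the groups was not counted. Detection of all probes was lower on AMD3100 arrays (71.1% on average, against 78.3%). The reason was not tested.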

How the results depend on the processing

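The reported fit gave 0 probes at an adjusted p below 0.05, 5498 of all tested probes and 4 of the 34 curated probes at an unadjusted p below 0.05, and a median curated log2 difference of −0.0432. Spike-in scaling lowered every log2 difference by the same amount, which took the median of all tested probes from 0.0343 to −0.6028. It gave 27, 11375, 10 and −0.68. Array weights gave 5019, 13969 and 10, and leaving out both AMD3100 replicate 1 and saline replicate 2 (chosen after seeing the data) gave 6946, 14433 and 11. With the detection covariate 1484 of all probes (3.73%) and 5 of the 34 curated probes (14.7%) were at an unadjusted p below 0.05. None passed correction, and the curated median was 0.1759. Normexp gave a curated median of 0.0684, against 0.1241 for all tested probes. No filter on dim probes gave 8 of 60 curated probes at an unadjusted p below 0.05, against 7817 of all 52210. The curated share was thus slightly under that of all probes. The curated median was 0.1005 in that setting, and that of all probes 0.0821. Leaving out 1 array at a time gave 0 to 210 adjusted calls (210 without saline replicate 2, 0 without each other array), 1835 to 8477 and 2 to 6 unadjusted calls, and medians of −0.1093 to 0.0086. With the replicate block, which the data do not bear out as a pairing (correlation of same-numbered deviations −0.154, −0.123 and 0.085), the counts were 0, 4564 and 3. Apart from the common step under spike-in scaling, the cause of these shifts was not tested. Detection on curated probes stayed lower on AMD3100 arrays without each single array, with differences of −0.5 to −3.83 probes. With all 6 arrays the share of all probes well above background was lower there too, 71.1% on average against 78.3% on saline arrays. Of the 34 curated probes, 5 kept their sign in all 20 settings (Rpph1, Timm9, NR_045202.1, LOC100910802 and Oip5-as1) and 29 changed it in at least 1. With quantile normalization the sign changed for Prrc2c (−0.0877). Under the common step of spike-in scaling only positive differences changed sign. With spike-in scaling the sign changed for NR_110636.1 (−0.28), Prrc2c (−0.62), Lnc134 (−0.57), LOC690120 (−0.43), LOC100910304 (−0.48), Meg3 (−0.51), LOC100909416 (−0.0585), NR_002597.1 (−0.35), NR_027366.1 (−0.46), Chchd4l1 (−0.56), Lnc004 (−0.58), Lnc081 (−0.51), LOC100365289 (−0.59), LOC100911360 (−0.59). With normexp the sign changed for LOC100910558 (0.0364), LOC102548847 (0.30), Prrc2c (−0.0129), LOC100910945 (0.14), LOC100911627 (0.0866), NR_110637.1 (0.17), Lnc004 (−0.23), Aptr (0.0386). With the second slide row only the sign changed for LOC100910558 (0.0223), Miat (0.21), Prrc2c (−0.24), LOC690120 (−0.0925), LOC100910945 (0.33), NR_002597.1 (−0.33), Abhd11-as1 (0.0338). With array weights the sign changed for LOC100910558 (0.0594), Prrc2c (−0.0804), Lnc134 (−0.0230), LOC100910973 (0.23), Tox3l1 (0.23). Under the detection covariate the sign changed for LOC100910558 (0.21), LOC100909539 (0.37), Miat (0.33), Prrc2c (−0.50), LOC690120 (−0.48), LOC100910945 (0.45), NR_002597.1 (−1.32), Abhd11-as1 (0.86), Cb707485 (0.73), Vof16 (0.0909), LOC102549726 (−0.30), Aptr (0.42), LOC100909680 (0.34). Under the fit without AMD3100 replicate 1 and saline replicate 2 the sign changed for LOC100910558 (0.15), Prrc2c (−0.15), Lnc134 (−0.0410), NR_027366.1 (−0.0268), LOC100910973 (0.33), Tox3l1 (0.30). Leaving out single arrays changed the sign for Aptr (−0.45 to 0.0687), Chchd4l1 (−0.0332 to 0.24), LOC100365289 (−0.0158 to 0.0931), LOC100910304 (−0.33 to 0.90), LOC100910558 (−0.38 to 0.10), LOC100910945 (−0.23 to 0.13), LOC100910973 (−0.53 to 0.38), LOC100911360 (−0.19 to 0.24), LOC100911627 (−0.21 to 0.0671), LOC102548847 (−0.60 to 0.15), LOC690120 (−0.0702 to 0.47), Lnc004 (−0.0290 to 0.19), Lnc081 (−0.0515 to 0.43), Meg3 (−0.22 to 0.38), Miat (−0.28 to 0.0262), NR_002597.1 (−0.0657 to 0.76), NR_110637.1 (−0.41 to 0.13), Prrc2c (−0.21 to 0.25), Tox3l1 (−0.20 to 0.28). Apart from the common step under spike-in scaling, the cause of these changes was not tested.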
